A study of Mus musculus with 9 samples.

Results

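The genes described here are 10 that carry glucose into the cell and break it down to lactate. They are the glucose transporters Slc2a1 and Slc2a3, the hexokinases Hk1, Hk2 and Hk3, the liver-type phosphofructokinase Pfkl, the aldolase Aldoa, the phosphoglycerate kinase Pgk1, the pyruvate kinase Pkm and the lactate dehydrogenase Ldha. They were chosen by symbol, and all 10 were found among the 20926 genes measured in the blood of DBA/1 mice. All mice were male and 7 weeks old when they were assigned to groups. The Ctrl mice served as controls for the model, and any injection they received is not described in the sources used here. In the CIA mice arthritis resembling the rheumatoid disease was raised with chick type II collagen, first in complete and then in incomplete Freund's adjuvant. The CIA+THz mice carried the same arthritis, and their swollen ankles received 0.1 THz irradiation on 14 days, 30 min each day. They were under isoflurane during each session, and no such anaesthesia is described for the other groups, so irradiation and anaesthesia cannot be told apart. There were 3 libraries in each group.

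Glycolysis turns glucose into pyruvate and yields ATP without oxygen. A transporter of the SLC2 family lets glucose into the cell, a hexokinase traps it as a phosphate ester, phosphofructokinase commits it to the pathway, and aldolase splits the sugar. Phosphoglycerate kinase and pyruvate kinase each return ATP, and lactate dehydrogenase reduces pyruvate to lactate so that the pathway can run on. Neutrophils and activated macrophages live largely on this route, mature red cells depend on it since they have no mitochondria, and activated lymphocytes increase it. Several of these genes are textbook targets of the hypoxia-inducible factor HIF-1, which binds the letters ACGTG or GCGTG on either strand.

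The deposited values were FPKM, mapped fragments scaled by transcript length and library total, and each library was rescaled by a median-of-ratios factor that lay between 0.847 and 1.24. FPKM holds no counts. Low values lay on rough steps, from which the relative depth was estimated at 1 to 1.10 in Ctrl, 1.01 to 1.28 in CIA and 1.35 to 1.87 in CIA+THz, with Ctrl replicate 1 set to 1, so values in CIA+THz rested on more reads. The samples are labelled as leukocytes, but the protocol names total blood RNA, and Alas2, the heme synthesis enzyme of red cell precursors, made up 11.4% to 16.7% of all FPKM in each library. The leukocyte markers searched for were present, with 12 of 12 listed neutrophil genes and 12 of 12 T cell genes in the table. In bulk blood, fewer cells of a type and less RNA per cell cannot be told apart. The labels number the libraries of a group without saying that each is 1 animal, so the p-values measure the spread between these libraries.

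Promoter sequences are shown for 4 of the genes, Ldha, Pgk1 and Hk2 as widely cited HIF-1 targets and Hk3 as the myeloid hexokinase with the AT-richest of the 4 windows. Each is the 250 bases before a RefSeq start site on GRCm38.p6, read along the gene's strand from 5′ to 3′. Capitals mark every match to ACGTG or GCGTG, or to their complements CACGT and CACGC.
Ldha, chr7:46845554-46845803, plus strand: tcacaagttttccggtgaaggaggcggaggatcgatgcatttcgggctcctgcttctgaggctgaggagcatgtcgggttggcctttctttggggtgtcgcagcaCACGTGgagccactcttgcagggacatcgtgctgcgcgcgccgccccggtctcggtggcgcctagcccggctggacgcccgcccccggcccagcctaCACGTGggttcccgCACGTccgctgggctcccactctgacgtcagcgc
Pgk1, chrX:106186850-106187099, plus strand: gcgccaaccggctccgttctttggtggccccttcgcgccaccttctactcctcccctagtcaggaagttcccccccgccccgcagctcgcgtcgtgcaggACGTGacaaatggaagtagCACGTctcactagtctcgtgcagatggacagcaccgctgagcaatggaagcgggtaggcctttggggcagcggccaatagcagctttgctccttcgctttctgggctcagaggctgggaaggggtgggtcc
Hk2, chr6:82774455-82774704, minus strand: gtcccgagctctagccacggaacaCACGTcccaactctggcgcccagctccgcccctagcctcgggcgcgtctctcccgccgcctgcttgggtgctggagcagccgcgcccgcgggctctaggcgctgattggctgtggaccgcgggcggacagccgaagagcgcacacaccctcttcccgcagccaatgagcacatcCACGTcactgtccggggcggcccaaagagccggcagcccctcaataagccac
Hk3, chr13:55021386-55021635, minus strand: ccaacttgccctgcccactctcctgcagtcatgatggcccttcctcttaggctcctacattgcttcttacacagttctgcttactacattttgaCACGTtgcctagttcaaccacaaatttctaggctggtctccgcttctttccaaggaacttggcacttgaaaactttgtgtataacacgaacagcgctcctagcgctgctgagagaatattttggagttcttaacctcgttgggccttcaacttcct
Ldha has 2 windows, of which the one shown has more matches and the other has 1. The one shown held 5 matches, which overlap because 2 of the sites are the palindrome CACGTG, also known as an E-box. Those of Pgk1 and Hk2 held 2 matches each and that of Hk3 held 1. RefSeq windows were matched for 9 of the 10 genes, 14 windows in all, and Slc2a3 was not among them. Of the 14 windows, 11 held a match, and each of the 9 genes had a match in at least 1 window. By comparison, 38.6% of all 32851 promoter windows held one, and 63.8% of the 9178 windows with a GC content of at least 60% did. The median GC content was 62.8% in the 14 windows and 52.4% in all windows. A match to these letters is a description of the sequence and no evidence of binding in these mice.

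The levels of the 10 genes spanned a wide range. FPKM is scaled by length, so levels can be set side by side between genes. Ldha had the highest mean over the 9 libraries, a rescaled FPKM of 415 that ranked 155 among all genes. Pkm followed at 351, Slc2a3 at 296, Aldoa at 213 and Pgk1 at 141. Each of these 5 overlapped its neighbour in that order when the libraries were compared. Pgk1 was followed at a distance by Hk1 at 45.5, which overlapped neither Pgk1 above it nor Hk3 below it. Hk3 averaged 22.4, Slc2a1 17.3, Pfkl 9.37 and Hk2 5.79, and each of these 4 overlapped its neighbour. Among the 10, the genes of the lower, ATP-yielding part and of lactate formation were thus well above those of the hexokinase and phosphofructokinase steps. The order does not extend to every enzyme of the lower part. Gapdh and Eno1 also lay above Hk1, but Pgam1 had group means of at most 32.7, beside at least 42.8 for Hk1.

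Slc2a3 encodes GLUT3, the high-affinity glucose transporter of neutrophils, platelets and neurons, and lies on the minus strand of chromosome 6 at 122727809 to 122801640 (GRCm38, GENCODE, as are all gene positions here). Its rescaled FPKM was 360, 401 and 295 in the Ctrl libraries, 294, 323 and 283 in CIA, and 214, 225 and 269 in CIA+THz. All 3 CIA+THz libraries were below all Ctrl and all CIA libraries, and CIA overlapped Ctrl. CIA+THz differed from Ctrl by -0.57 ± 0.15 (SE) on the log2 scale (adjusted p = 0.137 by limma). With FPKM as deposited that difference was -0.26, still without overlap, and CIA+THz (257 to 295 FPKM) overlapped CIA (267 to 313 FPKM). Slc2a1 encodes GLUT1, the broadly expressed basal transporter, on the plus strand of chromosome 4 at 119108711 to 119137983. Slc2a1 had a rescaled FPKM of 13.1, 19.2 and 15.5 in Ctrl, 15.8, 21.0 and 24.4 in CIA, and 17.2, 16.7 and 12.7 in CIA+THz. The 3 groups overlapped for Slc2a1, and none of its 3 differences had a p under 0.05 in limma.

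Hk1 encodes the ubiquitous hexokinase, which also serves red cells, and lies on the minus strand of chromosome 10 at 62268855 to 62379908. Across the libraries its rescaled FPKM was 47.8, 53.2 and 46.2 in Ctrl, 42.6, 51.9 and 39.2 in CIA, and 41.7, 42.0 and 44.8 in CIA+THz. The CIA+THz values were below those of Ctrl without overlap, at a log2 difference of -0.19 with a 95% interval from -0.42 to 0.04 by limma. In deposited FPKM, Hk1 in CIA+THz (47.9 to 51.7 FPKM) overlapped Ctrl (43.8 to 48.8 FPKM). Between CIA and CIA+THz Hk1 had the smallest difference of the 10, -0.05, with an interval from -0.34 to 0.24.

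Hk3, the hexokinase typical of myeloid cells, lies on the minus strand of chromosome 13 at 55005985 to 55021385. The rescaled FPKM of Hk3 was 28.5, 25.0 and 26.7 in Ctrl, 19.5, 24.7 and 22.8 in CIA, and 19.6, 17.9 and 16.5 in CIA+THz. Both arthritic groups were below Ctrl without overlap, by a log2 difference of -0.26 ± 0.13 (SE) in CIA (adjusted p = 0.360 by limma) and of -0.57 ± 0.12 in CIA+THz (adjusted p = 0.0996). Hk3 had the smallest p of the 10 genes in the comparison of CIA+THz with Ctrl. With FPKM as deposited that difference was -0.26, and it no longer passed an unadjusted p under 0.05. There CIA (17.8 to 23.9 FPKM) and CIA+THz (18.1 to 24.4 FPKM) both overlapped Ctrl (21.2 to 28.2 FPKM).

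Hk2, the inducible hexokinase of muscle, tumours and activated leukocytes, lies on the minus strand of chromosome 6 at 82725025 to 82774454 and was the least abundant of the 10. Hk2 had a rescaled FPKM of 3.49, 5.77 and 6.51 in Ctrl, 5.47, 6.98 and 7.79 in CIA, and 5.13, 5.23 and 5.75 in CIA+THz. The groups overlapped, and the Ctrl libraries spread widely, with an SD of 30.0% of their mean. The interval of the CIA difference from Ctrl, from -0.28 to 1.05, was the widest of the 30 intervals of these genes.

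Pfkl encodes the liver-type subunit of phosphofructokinase, the committing step, on the minus strand of chromosome 10 at 77986947 to 78010083. Its rescaled FPKM was 7.98, 9.21 and 8.64 in Ctrl, 8.75, 13.3 and 10.7 in CIA, and 8.64, 9.87 and 7.29 in CIA+THz. The groups overlapped in all 3 comparisons. Aldoa encodes the aldolase of muscle and blood cells on the minus strand of chromosome 7, where the annotation holds 2 gene entries of that symbol, at 126795234 to 126800751 and at 126800790 to 126809108, while the table holds 1 row. Aldoa had a rescaled FPKM of 192, 265 and 180 in Ctrl, 225, 305 and 219 in CIA, and 190, 175 and 166 in CIA+THz. The CIA+THz libraries were all below the CIA libraries, with the most negative log2 difference of the 10 genes, -0.48 ± 0.15 (SE; adjusted p = 0.269 by limma) and they overlapped Ctrl.

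Pgk1, the first ATP-yielding enzyme, lies on the plus strand of chromosome X at 106187100 to 106203699. The rescaled FPKM of Pgk1 was 141, 185 and 103 in Ctrl, 138, 162 and 165 in CIA, and 117, 135 and 119 in CIA+THz. The Ctrl libraries enclosed the range of both arthritic groups. CIA+THz lay below CIA without overlap, at a log2 difference of -0.32 ± 0.11 (SE; adjusted p = 0.298 by limma).

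Pkm yields the M1 and M2 forms of pyruvate kinase by alternative splicing, which a gene-level value does not separate. It lies on the plus strand of chromosome 9 at 59656368 to 59679375. Its rescaled FPKM was 328, 390 and 297 in Ctrl, 354, 493 and 396 in CIA, and 318, 294 and 288 in CIA+THz. The CIA+THz values lay below those of CIA without overlap, at a log2 difference of -0.45 ± 0.14 (SE; adjusted p = 0.269 by limma), and overlapped Ctrl.

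Ldha encodes the lactate dehydrogenase subunit that favours lactate formation, on the plus strand of chromosome 7 at 46841475 to 46855627. The rescaled FPKM of Ldha was 344, 419 and 342 in Ctrl, 492, 497 and 506 in CIA, and 387, 398 and 346 in CIA+THz. The 3 CIA libraries stood close together and above all 6 others, and CIA+THz overlapped Ctrl. CIA differed from Ctrl by 0.44 ± 0.13 (SE) on the log2 scale, which is 35.8% (adjusted p = 0.166 by limma). CIA+THz differed from CIA by -0.40 ± 0.09 (adjusted p = 0.213 by limma), and from Ctrl by 0.04, with an interval from -0.25 to 0.33. Leaving out each library in turn kept the first of these between 0.39 and 0.54 and the second between -0.44 and -0.34, each with an unadjusted p under 0.05. In deposited FPKM the first was 0.47 and still without overlap, while the second was -0.13, no longer at an unadjusted p under 0.05, and CIA (447 to 501 FPKM) overlapped CIA+THz (380 to 480 FPKM). There CIA+THz also lay above Ctrl (316 to 361 FPKM) without overlap, with a log2 difference of 0.34.

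**Figure D1:**
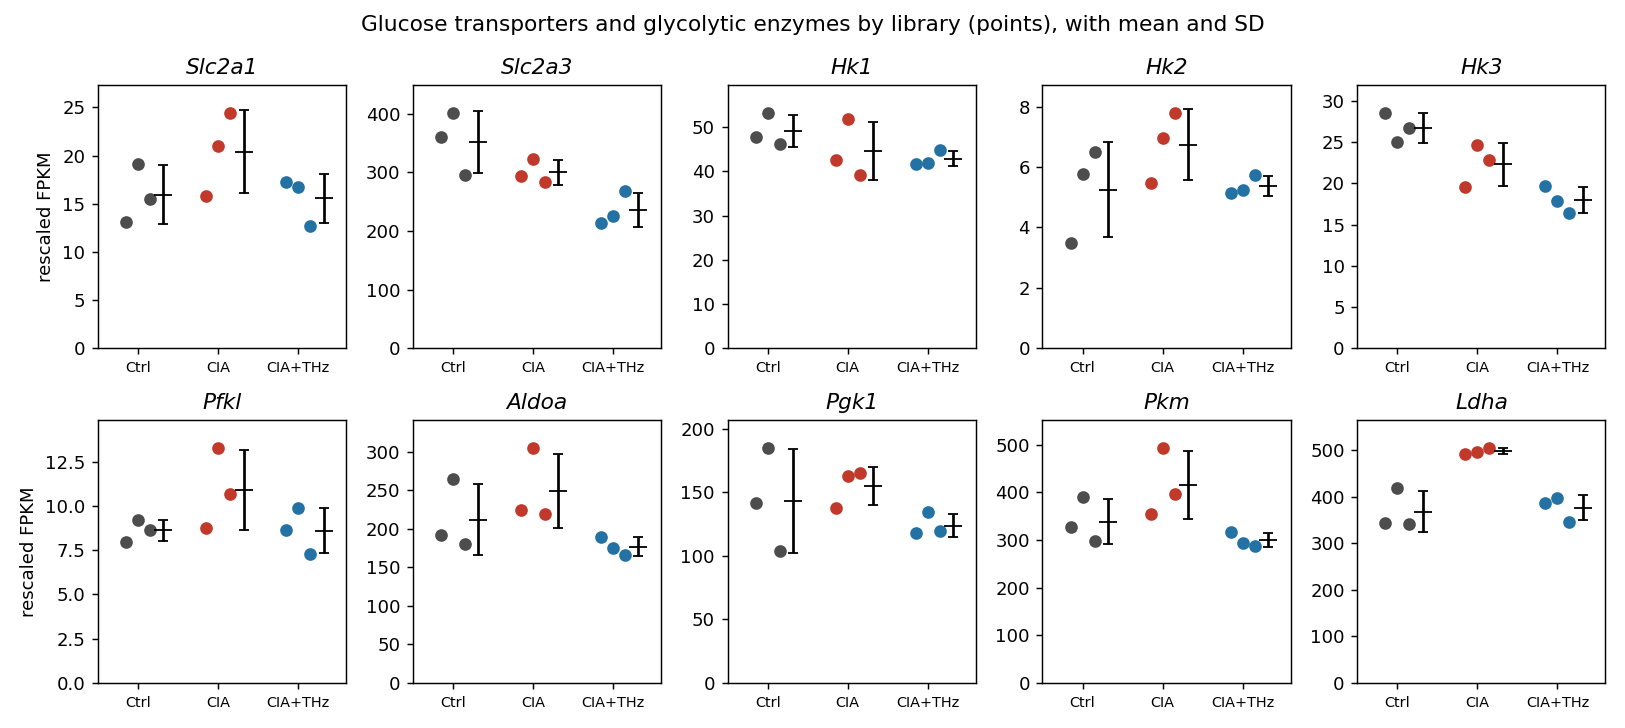
Rescaled FPKM of each of the 10 genes (vertical axes, linear from 0) in the 3 Ctrl, 3 CIA and 3 CIA+THz libraries; points are libraries, and the bars beside them are the mean and SD of each group. The 3 CIA points of Ldha lie between 492 and 506, above all other libraries, and the CIA+THz points of Slc2a3 lie below all others; in FPKM as deposited both overlap between CIA and CIA+THz.

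The first comparison, CIA against Ctrl, asks how these genes differed with arthritis. None of the 10 passed the study's criterion, which asks for p under 0.05 before adjustment together with a log2 fold change beyond 0.67 in size. By limma, 9.04% of the 12366 genes tested passed it. Of the 10 genes, 7 were higher in CIA and 3 lower, with a median log2 fold change of 0.26 beside -0.01 over all genes tested. Slc2a3, Hk1 and Hk3 were the lower ones. On an unadjusted p alone, 1 of 10 was higher, Ldha, against 8.85% of all genes, and 1 of 10 lay above Ctrl without overlap, again Ldha, against 11.8% of all genes. The adjusted p of the 10 genes ran from 0.166 to 0.755. Of the 10 intervals, 9 lay within a 2-fold change in either direction, and Hk2 was the exception.

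The second comparison, CIA+THz against CIA, asks how they differed with irradiation of arthritic mice. All 10 genes were lower in CIA+THz, with a median log2 fold change of -0.34 beside 0.03 over all genes tested, of which 47.1% were lower, although Hk1 was higher under 2 other scalings described below. None passed the criterion of p and fold, against 4.54% of all genes, since the differences of the 10 reached at most 0.48 in size. On an unadjusted p alone, 6 of the 10 were lower, Slc2a3, Hk3, Aldoa, Pgk1, Pkm and Ldha, against 7.33% of all genes. By the absence of overlap, 5 of the 10 were below CIA, the same genes without Hk3, against 10.2% of all genes. In deposited FPKM all 10 overlapped between CIA+THz and CIA. The adjusted p of the 10 ran from 0.213 to 0.897, so none passed 0.05, and no gene of all 12366 did. The 6 at an unadjusted p under 0.05 became 3 without CIA replicate 2 or without CIA+THz replicate 3, and 9 without CIA replicate 1.

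Against Ctrl, the CIA+THz libraries had 8 of the 10 genes lower and 2 higher, Hk2 and Ldha, with a median log2 fold change of -0.17 beside 0.04 over all genes tested. None passed the criterion of p and fold, against 7.88% of all genes. Slc2a3 and Hk3 were the 2 of 10 that were lower on an unadjusted p alone, against 9.69% of all genes. Slc2a3, Hk1 and Hk3 were the 3 of 10 below Ctrl without overlap, against 12.0% of all genes. In deposited FPKM only Slc2a3 lay below Ctrl without overlap, and Ldha lay above it. Without Ctrl replicate 3, Slc2a3 passed the criterion at a log2 fold change of -0.69 by limma. This comparison shares the Ctrl libraries with the first and the CIA+THz libraries with the second, so the 3 are not independent.

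Across the 3 groups, 4 of the 10 genes passed at p under 0.05 before adjustment by the F-test of limma, against 21.3% of all genes tested. They were Hk3, Slc2a3, Ldha and Pkm, with adjusted p of 0.0890, 0.0987, 0.0987 and 0.193 by limma, so none passed after the adjustment. Their patterns were not alike. Slc2a3 and Hk3 had their highest mean in Ctrl and their lowest in CIA+THz, and Pkm and Ldha had their highest mean in CIA. Of the 10 genes, 7 had the highest mean in CIA, as had 32.3% of the genes tested, and 8 had the lowest mean in CIA+THz, as had 28.1%. These shares are those of the rescaled values, and the second depends on the scaling. Before rescaling, Slc2a1, Hk1, Pfkl, Aldoa, Pgk1 and Pkm, all among those 8, averaged more in CIA+THz than in Ctrl on the log2 scale.

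**Figure D2:**
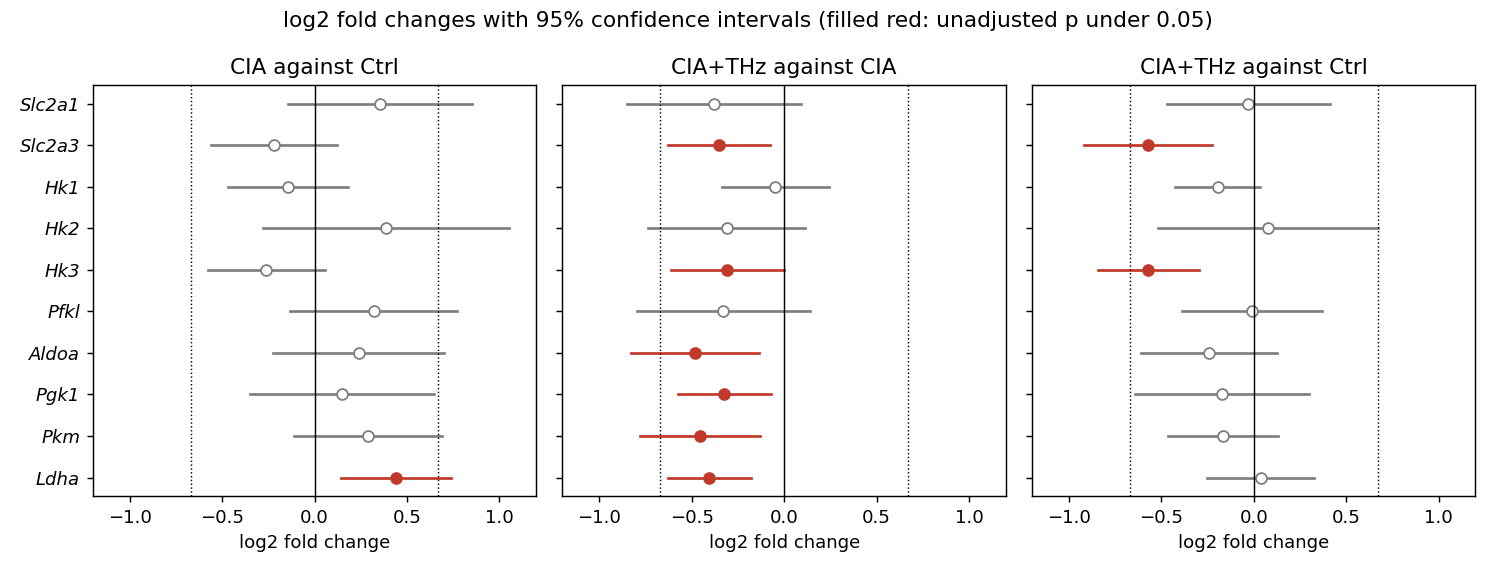
Log2 fold change on the scale of log2(rescaled FPKM + 0.1) of each gene in the 3 comparisons, with 95% confidence intervals as horizontal lines; filled red points have an unadjusted p under 0.05 in limma, and dotted lines mark the fold threshold of 0.67. All 10 points lie left of 0 in CIA+THz against CIA (Hk1 lies right of 0 under both other scalings), and no point in any comparison passes a dotted line.

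Single libraries weighed on several genes at once. Ctrl replicate 2 had the highest value of its group for 8 of the 10 genes, with a summed level of 1772, beside 1465 and 1321 in the other Ctrl libraries. CIA replicate 2 had the highest value of its group for 6 of the 10, with a summed level of 1899 beside 1594 and 1673. The CIA+THz libraries were closer together, at 1318, 1318 and 1276, and all of them were below the 3 CIA libraries as rescaled. As deposited, the sums of 1401 to 1635 in CIA+THz overlapped those of 1449 to 1841 in CIA.

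The scaling of the libraries decides where 0 lies. With FPKM as deposited, the log2 fold changes moved upward by 0.28 in CIA+THz against CIA and by 0.31 in CIA+THz against Ctrl. These are the differences of the groups' mean log2 factors, and low genes moved by less because of the pseudocount. Between CIA+THz and CIA, 9 of the 10 genes were still lower, but with a median of -0.06 and none with an unadjusted p under 0.05 in limma, and Hk1 was higher by 0.23. Against Ctrl, 8 of the 10 were higher with FPKM as deposited, Slc2a3 and Hk3 being the exceptions. Scaled to 14 ubiquitous genes with no part in glycolysis, 9 of the 10 had lower values in CIA+THz, with a median of -0.28, Hk1 was higher by 0.02, and 4 of the 10 passed on an unadjusted p alone. For CIA against Ctrl the same 7 genes were higher and the same 3 lower under each of the 3 scalings. Measured from the median of all genes tested, all 10 lay below it in CIA+THz against CIA under each scaling, with a median of -0.37 as rescaled, -0.35 as deposited and -0.36 with the ubiquitous genes. A scaling moves nearly all genes alike, so these 3 values had to be close and say nothing of stability.

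**Figure D3:**
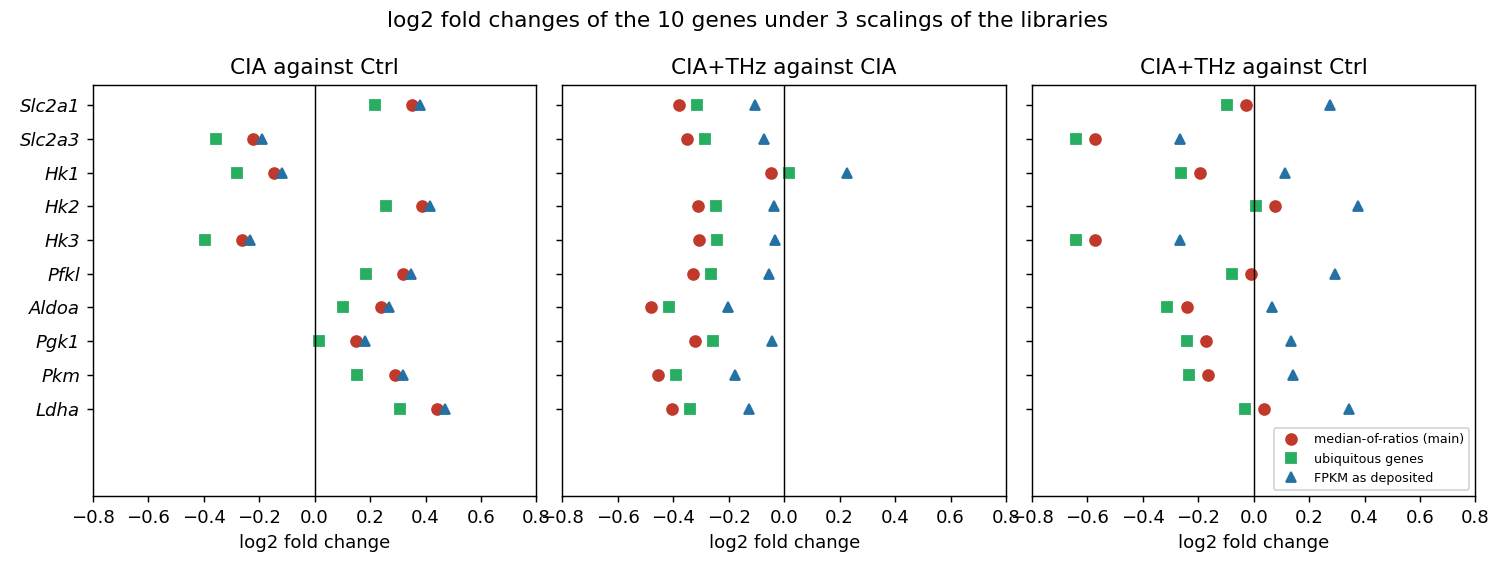
Log2 fold change of each gene in the 3 comparisons under the median-of-ratios scaling (red circles), scaling to 14 ubiquitous genes (green squares) and FPKM as deposited (blue triangles). In CIA+THz against CIA the blue triangles lie right of the red circles by about 0.28, with Hk1 beyond 0, and in CIA+THz against Ctrl 8 of 10 triangles lie right of 0.

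Shares of isozymes do not depend on the scaling of a library. Hk1 made up 60.5% ± 2.64 (SD, n = 3) of the summed hexokinase FPKM in Ctrl, with 60.4% ± 3.74 in CIA and 64.7% ± 2.07 after irradiation. Hk3 held 33.0% ± 3.04 in Ctrl, compared with 30.4% ± 2.04 in CIA and 27.2% ± 2.51 in CIA+THz, and Hk2 held 6.48% ± 1.94, 9.20% ± 1.70 and 8.11% ± 0.435. The libraries of the groups overlapped for Hk1 and Hk2, and for Hk3 all 3 CIA+THz libraries, from 24.6% to 29.6%, were below all Ctrl libraries, from 29.8% to 35.8%.

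Among the phosphofructokinase subunits Pfkl was not the leading one. Pfkp, the platelet type, held 53.2% ± 2.39 (SD, n = 3) of their sum in Ctrl, then 55.4% ± 5.02 in CIA and 62.1% ± 4.54 in CIA+THz, and Pfkl held 24.0% ± 1.19, 27.4% ± 3.08 and 24.8% ± 2.86. Pfkm, the muscle type, held 22.8% ± 1.21 in Ctrl, but 17.2% ± 2.52 in CIA and 13.1% ± 2.28 in CIA+THz, and its Ctrl libraries lay above all others. Slc2a1 held 4.35% ± 0.762 of the 2 glucose transporters in Ctrl, against 6.38% ± 1.43 in CIA and 6.29% ± 1.57 in CIA+THz, with Slc2a3 as the rest. A further transporter, Slc2a6 (GLUT6), lay between them at 68.3 to 73.5 rescaled FPKM in Ctrl, 75.4 to 115 in CIA and 64.7 to 80.9 in CIA+THz, and is not part of that share. It was above Ctrl in CIA without overlap, at a log2 difference of 0.40 (adjusted p = 0.272 by limma). Aldoa held at least 99.2% of the aldolase sum and Ldha at least 97.7% of the lactate dehydrogenase sum in every library. Pklr, which encodes the pyruvate kinase of red cells and liver, was above 0 in 1 of the 9 libraries, so that Pkm made up the pyruvate kinase signal.

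**Figure D4:**
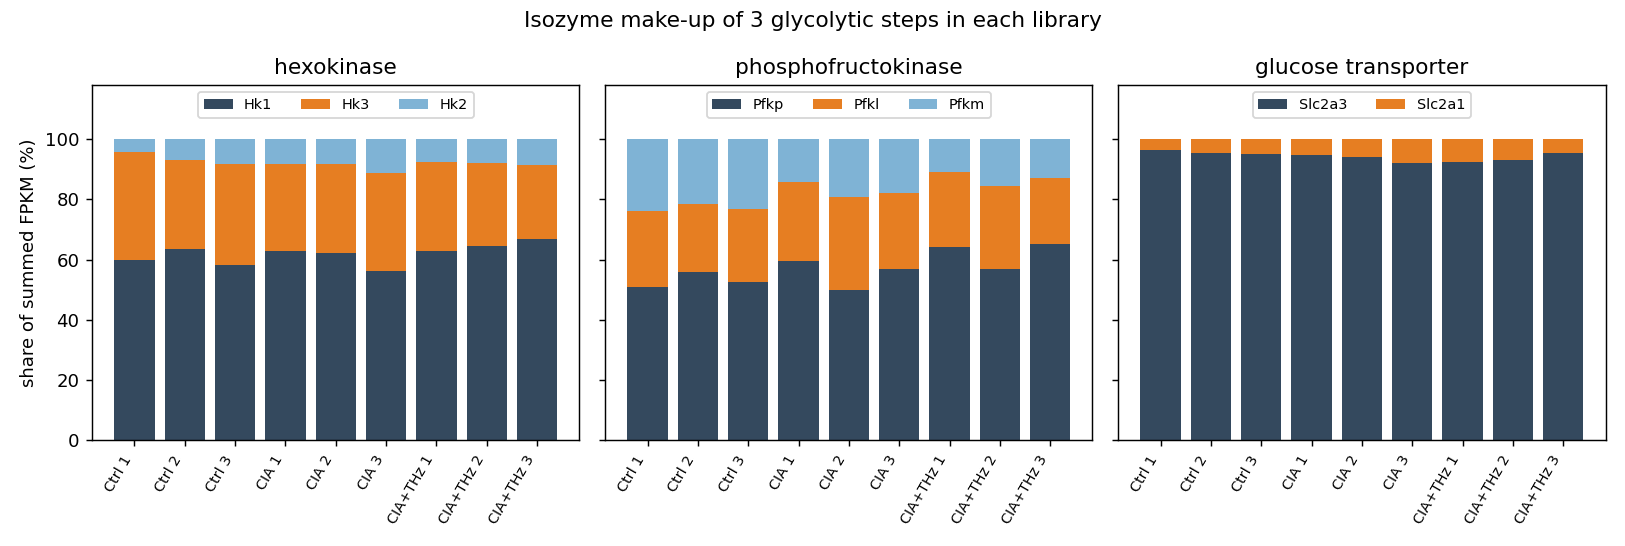
Share of each isozyme in the summed FPKM (%) of Hk1, Hk2 and Hk3, of Pfkl, Pfkm and Pfkp, and of Slc2a1 and Slc2a3 in each of the 9 libraries, stacked to 100. Pfkm holds between 21.5% and 23.8% in the Ctrl libraries and between 11.0% and 15.5% in CIA+THz, while Hk1, Pfkp and Slc2a3 lead their panel in every library.

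The ratio of Ldha to Slc2a3, chosen after its values were seen and given without a test, also does not depend on the scaling. It was 0.957, 1.04 and 1.16 in the Ctrl libraries, 1.67, 1.54 and 1.79 in CIA, and 1.81, 1.77 and 1.29 in CIA+THz. Both arthritic groups lay above Ctrl without overlap, and they overlapped each other. The ratio of Ldha to Hk1 was 7.50 ± 0.348 (SD, n = 3) in Ctrl, against 11.3 ± 1.67 in CIA and 8.84 ± 0.966 in CIA+THz.

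Of 37 other genes of glucose uptake, glycolysis and pyruvate handling, 30 were tested. In CIA against Ctrl, Ldhb, the heart-type lactate dehydrogenase subunit, rose by 1.21 on the log2 scale (adjusted p = 0.271 by limma), and Mpc2, a subunit of the mitochondrial pyruvate carrier, fell by 0.94 (adjusted p = 0.243 by limma). These are 2 of 30, where 9.04% of all genes were called. The 3 CIA libraries of Ldhb were far apart, at 3.29, 11.7 and 9.64. Both calls were lost without CIA replicate 2 or without CIA replicate 3, and that of Ldhb also when the libraries were scaled to the ubiquitous genes. Of the 30 genes 18 were higher, with a median of 0.19. On an unadjusted p alone 5 of 30 were higher and 2 lower, against 1095 and 1045 of all 12366 genes. By the absence of overlap 5 of 30 were above Ctrl and 1 below, against 1454 and 1456 of all genes. The 5 higher on an unadjusted p included Eno1, Gapdh and Pdk3, at 0.53, 0.44 and 0.61 (adjusted p = 0.187, 0.267 and 0.194 by limma).

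Irradiation of arthritic mice gave no call among these 30. Set against CIA, 18 of 30 were lower with a median of -0.06, which became 12 lower with a median of 0.22 for FPKM as deposited. On an unadjusted p alone 4 of 30 were lower, against 7.33% of all genes. Of these, 3 are enzymes that act after the aldolase step. Gapdh had a log2 difference of -0.44, Eno1, the leading enolase, of -0.48 and Tpi1, the triosephosphate isomerase, of -0.41. The fourth was Slc16a3, the lactate exporter MCT4, at -0.38. These 4 and Pdk3, a kinase of pyruvate dehydrogenase, lay below CIA without overlap, 5 of 30 against 10.2% of all genes; the 4 had adjusted p between 0.210 and 0.286 by limma. Gpi1 and Pgam1, the sole or leading enzymes of their steps, had values of -0.22 and -0.39 with intervals that included 0, and Pfkp had -0.02. Eno3, the muscle-type enolase, was higher by 0.49 (adjusted p = 0.364 by limma).

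Set against Ctrl, the CIA+THz libraries gave 4 calls of 30, where 7.88% of all genes were called. Eno3 rose by 0.93 and Ldhb by 0.87, and Pfkm fell by 0.85 and Mpc2 by 0.98, at adjusted p of 0.120 to 0.168 by limma. The list as a whole had a median of 0.01. With FPKM as deposited the value of Pfkm was -0.55, under the fold threshold. Ldhb passed no longer without Ctrl replicate 3, nor Mpc2 without Ctrl replicate 1 or 2 or without CIA+THz replicate 1 or 3, and Eno3 passed whichever library was left out. Bpgm, the red cell enzyme that makes the oxygen-releasing effector of hemoglobin from a glycolytic intermediate, had a mean of 14807 ± 4417 (SD, n = 3) in Ctrl, with 10679 ± 2489 in CIA and 8570 ± 1639 in CIA+THz, far above every one of the 10 genes.

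The neighbouring lists were short, and none gave more than 1 call in a comparison. The background share of calls was 9.04% for the first comparison, 4.54% for the second and 7.88% for the one that sets irradiated mice beside controls. With so few genes to a list, 1 call cannot be ranked against such shares. Of 7 pentose phosphate genes, Pgls, the lactonase, rose by 0.70 in CIA against Ctrl (adjusted p = 0.164 by limma). Scaled to the ubiquitous genes, Pgls was under the fold threshold, at 0.57. In CIA+THz against CIA, Pgd and Tkt had log2 differences of -0.40 and -0.27 (adjusted p = 0.279 and 0.363 by limma). In that comparison 5 of the 7 genes were lower with a median of -0.20, but 2 of 7 with a median of 0.07 for FPKM as deposited. Of 8 glycogen genes, the branching enzyme Gbe1 fell by 0.93 in CIA against Ctrl (adjusted p = 0.172 by limma). Of 6 transcriptional regulators tested, Epas1, which encodes HIF-2α, fell by 1.04 in CIA+THz against Ctrl from 0.931, 1.89 and 1.08 to 0.645, 0.440 and 0.588 rescaled FPKM, a call that FPKM as deposited did not keep at -0.77. Hif1a had a log2 difference of -0.10 in CIA+THz against CIA, with an interval from -0.35 to 0.16. Its difference in CIA+THz against Ctrl was -0.44, below Ctrl without overlap as rescaled (adjusted p = 0.205 by limma). With FPKM as deposited the log2 differences of that comparison moved upward by 0.31, and Hif1a in CIA+THz overlapped Ctrl. Of 12 HIF target genes outside glycolysis, 11 had negative differences from CIA in CIA+THz, with a median of -0.24, but 5 of 12 and a median of 0.04 with FPKM as deposited. Egln3, the prolyl hydroxylase that marks HIF for degradation, fell by 1.00 in CIA+THz against CIA as rescaled (adjusted p = 0.196 by limma). Its rescaled FPKM was 9.89, 8.65 and 8.46 in CIA and 3.81, 5.67 and 4.05 in CIA+THz. Bnip3l, a mitophagy receptor of maturing red cells, fell by 0.72 in CIA+THz against Ctrl, and under FPKM as deposited its value of -0.41 did not pass.

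Marker lists of blood cell types are set beside the 10 genes, and no marker in the table was at 0 in all libraries. In CIA+THz 12 of 12 neutrophil markers were below their CIA values, with a median of -0.45 (10 of 12 and -0.18 with FPKM as deposited). Their summed rescaled FPKM was 11202 to 12673 in CIA+THz and 15021 to 19447 in CIA, most of it S100a9. As deposited, these sums overlapped between the groups. The immature granule genes of neutrophils had the most negative median of the marker lists, -0.65 (-0.45 as deposited). Of these 8 of 9 were lower, and 4 of 9 were called, Camp, Ltf, Ngp and Chil3, against 4.54% of all genes. The median of -0.65 was the value of Ctsg, at no more than 1.95 rescaled FPKM in CIA and 1.30 in CIA+THz. Elane, Mpo and Prtn3 were low as well, and none of these low genes was called. Platelet markers were lower for 9 of 9, with a median of -0.41 (7 of 9 and -0.13 as deposited) and sums of 3890 to 4650 against 4588 to 5829. Monocyte markers were lower for 10 of 12, with a median of -0.29 (6 of 12 and -0.013 as deposited). The monocyte sums were 846 to 917 against 1061 to 1198 as rescaled, and overlapped as deposited. By contrast 12 of 12 T cell markers were higher, with a median of 0.34, as were 7 of 7 NK cell markers, with a median of 0.59, and 8 of 10 B cell markers, with a median of 0.27, and all 3 medians were higher still with FPKM as deposited. Of 9 erythroid markers 6 were lower, with a median of -0.07, against 1 of 9 and a median of 0.20 as deposited. Their summed level was 47527 to 65574 in CIA+THz and 87273 to 97998 in CIA, nearly all of it Alas2, and without Alas2 the sums of 353 to 497 and 324 to 615 overlapped. The 14 ubiquitous genes had a median of -0.08, with 11 of 14 lower, and of 0.20 with FPKM as deposited. The part of any of these cells in the values of the 10 genes was not tested.

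In CIA against Ctrl the monocyte markers were higher for 11 of 12, with a median of 0.99, and their sums were 1061 to 1198 in CIA and 721 to 769 in Ctrl. The neutrophil markers had a median of -0.18, with 8 of 12 lower, and the immature granule genes were higher for 8 of 9, with a median of 1.75. That median was the value of Mpo, at 0 in every Ctrl library and at 0, 0.317 and 0.812 in CIA, so it depends on the pseudocount. The 4 of 9 called, against 9.04% of all genes, were Camp, Ltf, Ngp and Chil3. The T cell markers were lower for 12 of 12, with a median of -0.30. NK cell markers were lower for 7 of 7, with a median of -0.99, and 5 of 7 were called, against 9.04% of all genes. Plasma cell markers were lower for 6 of 7, with a median of -0.92, and erythroid markers for 8 of 9, with a median of -0.66. The depth estimate was also higher in CIA+THz than in either other group, and its part in the differences was not tested.

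**Figure D5:**
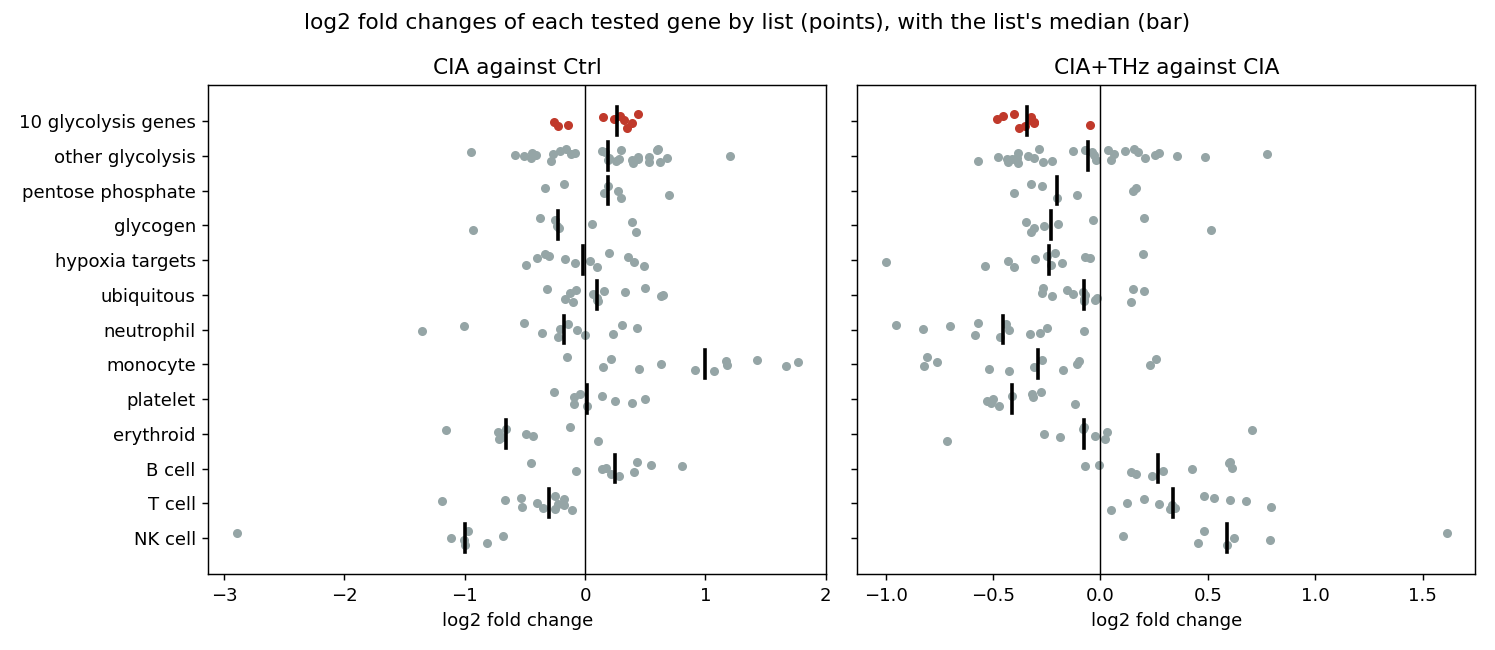
Log2 fold change of each tested gene (points) in the 10 glycolysis genes (red) and 12 other lists (grey), with each list's median as a black bar, in CIA against Ctrl (left) and CIA+THz against CIA (right). In the right panel the red points, with a median of -0.34, lie on the same side as the neutrophil, platelet and monocyte medians, and the T cell and NK cell medians lie on the other side. FPKM as deposited moves the points of the right panel to the right by 0.28, or by less in low genes, and Hk1 beyond 0.

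Some reads of these genes could belong to near copies. Aldoa, Pgk1, Pkm, Ldha and Gapdh have processed pseudogenes in the mouse genome, and how the authors' counting split such reads is not given in the sources used here, so their levels are uncertain to that degree. The intact relatives Aldoart2 and Pgk2 were at 0 in all libraries, Aldoart1 reached 0.0344 FPKM and Ldhal6b 2.89. Exons of Fam57b overlap Aldoa and those of Unc5a overlap Hk3 on the opposite strand, at no more than 2.16 and 0.106 FPKM, and without strand such reads cannot be told apart.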

How the data were processed

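Blood RNA of male DBA/1 mice, 3 libraries each for Ctrl, CIA and CIA+THz, was sequenced by the authors in paired-end mode on an Illumina HiSeq instrument. The deposited table gives FPKM for 20926 genes named by symbol. The submitters' processing notes list bcl2fastq 2.0, HISAT2, StringTie and DESeq2 and the build mm10, without their roles. Strand and filters are not given in the sources used here.

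The FPKM of each library were rescaled by its median ratio to the geometric mean of the libraries, taken over 10312 genes that were nowhere 0. Genes averaging a rescaled FPKM of 0.1 or more, 12366 in all, were tested as log2(rescaled FPKM + 0.1), a scale that makes changes of low genes look smaller, with limma 3.58.1 (lmFit, eBayes with trend) in R 4.3.3. Each pair of groups was fitted on its 6 libraries. The call followed the study, with an unadjusted p under 0.05 and a log2 fold change beyond 0.67 in either direction. An F-test over the 9 libraries used an unadjusted p under 0.05. Adjusted p are Benjamini-Hochberg values over all genes tested, and intervals are limma's 95% intervals. All tests were two-sided. Absolute depth was not recovered from FPKM, so no counting interval is given, and a value of 0 means only that a gene was listed at 0.

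The 10 genes and the gene lists were chosen with earlier results of these data known. Named genes were the 10, the genes of the other lists that passed the criterion in any pair, and the leading isozyme of each step. A further part of the rule, the genes nearest in profile to a called one of the 10, named none, because none was called. Genes at an unadjusted p under 0.05 alone, Hif1a, Pdk3, Pgd, Slc2a6 and Tkt were named after their values were seen. Ahsp and the hemoglobin genes were not analysed here. A gene of the lists is not reported here. Coordinates are those of GENCODE M21 on GRCm38, matched by symbol, and promoters are from RefSeq. The fit was tested on simulated data. Alternatives were other scalings, a pseudocount of 1, other filters, no trend, 1 fit over all groups, the replicate number as a block, adjusted p, leaving out each library, and analysis of variance of the linear values. The count of the 10 genes at an unadjusted p alone was added after seeing the data.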

Additional observations from a re-analysis of the deposited data

How the results depend on the processing

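None of the 10 genes passed the criterion of p and fold in any pair comparison under any alternative, except Slc2a3 in CIA+THz against Ctrl without Ctrl replicate 3, so that the count ran from 0 to 1 when libraries were left out. With FPKM as deposited, 1199 genes of all passed in CIA+THz against CIA and 1720 in CIA+THz against Ctrl, beside 561 and 975 as rescaled. There 2 other glycolysis genes passed in CIA+THz against CIA, 0 of the 10 had an unadjusted p under 0.05, and 1 of the 10 did across the 3 groups. The 7 directions that turned with FPKM as deposited were Hk1 in CIA+THz against CIA (0.23) and, in CIA+THz against Ctrl, Slc2a1 (0.28), Hk1 (0.11), Pfkl (0.29), Aldoa (0.065), Pgk1 (0.13) and Pkm (0.14). Scaled to the ubiquitous genes, Hk1 in CIA+THz against CIA (0.016) and Ldha in CIA+THz against Ctrl (-0.031) turned, and in CIA against Ctrl 2 of the 10 had an unadjusted p under 0.05 and 1 other glycolysis gene passed. A pseudocount of 1 left 283 genes in CIA+THz against CIA. Without a filter or without a trend, 0 other glycolysis genes passed in CIA against Ctrl, and without a trend 3 of the 10 had an unadjusted p under 0.05 in CIA+THz against CIA. An analysis of variance on linear values gave 5 other glycolysis genes across the groups, beside 9. At an adjusted p under 0.05 in limma, 19, 0 and 13 genes passed in CIA against Ctrl, CIA+THz against CIA and CIA+THz against Ctrl, and 313 across the groups, with 0 of the 10 and 0 other glycolysis genes in each. The 0 in CIA+THz against CIA stands beside 728 genes higher and 906 lower at an unadjusted p under 0.05.

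Leaving out each library in turn gave 731 to 1498 genes in CIA+THz against Ctrl, and for the other glycolysis genes 0 to 2 in CIA against Ctrl, 0 to 2 in CIA+THz against CIA and 5 to 9 across the groups. Of the 10, those at an unadjusted p under 0.05 numbered 1 to 3 in CIA against Ctrl and 3 to 9 in CIA+THz against CIA. Directions turned for values near 0. In CIA+THz against Ctrl the ranges were -0.19 to 0.25 for Hk2, -0.013 to 0.13 for Ldha, -0.16 to 0.11 for Slc2a1, -0.11 to 0.10 for Pfkl and -0.39 to 0.032 for Pgk1. In CIA against Ctrl Pgk1 ran from -0.064 to 0.35, and in CIA+THz against CIA Hk1 ran from -0.14 to 0.066. The cause of these shifts was not tested.

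The correlation of the deviations of same-numbered libraries lay between -0.0517 and 0.0309, and that of differently numbered ones between -0.0340 and 0.0561. With 3 libraries in each group, these values cannot settle whether the replicate numbers of the labels pair the libraries. With the replicate number as a block, 1073, 506 and 967 genes passed in the 3 comparisons in the order above, 0 of the 10 passed in each, and 4 of the 10 had an unadjusted p under 0.05 in CIA+THz against CIA. Absolute depth is not known from FPKM, so what it limits for single genes could not be ranked.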
